A study of Mus musculus with 8 samples.

Results

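The locus of Tspan8, the gene for tetraspanin 8, was examined in ATAC-seq data from mouse mTECs, the epithelial cells of the thymic medulla. Its members were all accessible regions that lie on chromosome 10 between positions 115600000 and 116000000 of the mm10 genome, a window of 400 kb around the gene. They were 9 of the 57124 regions in the whole set and are numbered 1 to 9 here from the lowest to the highest coordinate. The rule used position only and no measured value.

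ATAC-seq maps open chromatin through a transposase that cuts accessible DNA and inserts sequencing adapters. The 8 samples came from the thymus of wild-type mice, which the study's methods give as 4 to 6 weeks old, and no treatment is given in the labels. They fell into 4 groups of 2 biological replicates, Tspan8neg MHCIIlow, Tspan8neg MHCIIhigh, Tspan8pos MHCIIlow and Tspan8pos MHCIIhigh, which were sorted by surface Tspan8 and MHC class II. The study compared these groups to ask which chromatin goes with expression of a self-antigen and with maturation. The 8 columns of read counts in the table carry names that match no sample, so no count was used, and neither the depth of a sample nor a difference between Tspan8pos and Tspan8neg cells is analysed here. Each region belongs to the merged set of all samples, and its position does not show which samples gave rise to it. The sort used Tspan8 itself, so the standing of this gene among other genes holds for the sorted set only. Its standing in unsorted mTECs was not tested. What is described here is where the regions lie, how wide they are and which sequence they hold. Nothing in the description is a test, and regions are not replicates.

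Tetraspanins are small proteins that cross the membrane 4 times and gather integrins, receptors and other partners into membrane microdomains. Tspan8 is a member found mainly in the epithelium of the gut and other inner surfaces. In the thymus it belongs to the tissue-restricted self-antigens, genes of peripheral tissues that mTECs express so that developing T cells can be tested against them, and each such antigen is made in only a small share of mTECs. Selective expression of this kind makes the promoter and the nearby regions of the gene the place to look for open chromatin.

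The sequence at the Tspan8 start is shown first because region 7, the promoter region, lies there. The forward strand is given from chr10:115817034-115817270 (RefSeq promoter table, GRCm38, the assembly behind mm10), up to the base before the first transcription start of the GENCODE basic set. Capitals mark the 121 bases that lie within region 7.
Tspan8 promoter: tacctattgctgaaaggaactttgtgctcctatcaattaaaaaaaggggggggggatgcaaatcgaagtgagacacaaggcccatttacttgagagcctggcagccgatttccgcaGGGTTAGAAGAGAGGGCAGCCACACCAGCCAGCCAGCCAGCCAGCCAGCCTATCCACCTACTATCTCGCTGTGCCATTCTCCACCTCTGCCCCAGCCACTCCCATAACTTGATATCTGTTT

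Regions 3, 6 and 8 are shown because they hold the letters TGANTCA, searched here for AP-1 (dimers of Fos and Jun proteins), and these matches are in capitals. Region 3 lies at chr10:115780305-115780550, region 6 at chr10:115814754-115814976 and region 8 at chr10:115829015-115829169, all written on the forward strand.
Region 3: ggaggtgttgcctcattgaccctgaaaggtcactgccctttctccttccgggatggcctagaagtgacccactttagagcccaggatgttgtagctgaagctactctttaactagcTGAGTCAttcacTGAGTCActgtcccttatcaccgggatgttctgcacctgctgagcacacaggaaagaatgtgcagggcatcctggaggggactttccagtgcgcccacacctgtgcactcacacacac
Region 6: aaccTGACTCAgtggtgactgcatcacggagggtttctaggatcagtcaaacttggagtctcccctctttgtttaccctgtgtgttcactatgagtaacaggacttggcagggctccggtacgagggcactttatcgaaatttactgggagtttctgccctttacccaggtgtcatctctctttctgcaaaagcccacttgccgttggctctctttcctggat
Region 8: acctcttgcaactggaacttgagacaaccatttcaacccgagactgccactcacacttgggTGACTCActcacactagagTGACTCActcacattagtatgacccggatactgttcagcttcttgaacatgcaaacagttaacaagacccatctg

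Open chromatin around Tspan8 was concentrated at the gene and on its upstream side. The 6 regions numbered 4 to 9 lay within 38746 bases, from 115805533 to 115844278, and the other 3 were spread upstream over up to 199625 bases before the start. No region lay between 115844278 and the end of the window. In the annotation, Tspan8 (ENSMUSG00000034127) runs on the forward strand from 115816832 to 115849893 over 33062 bases. The long noncoding RNA gene 4930422I22Rik runs across all of it on the reverse strand, from 115802416 to 115869522, so that regions 4 to 9 overlapped this gene too. ATAC-seq does not tell the strands apart, and these 6 regions cannot be given to 1 of the 2 genes by position alone. No region centre lay within 1000 bases upstream to 100 bases downstream of the start of 4930422I22Rik, and the nearest was 25290 bases away.

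**Figure D1:**
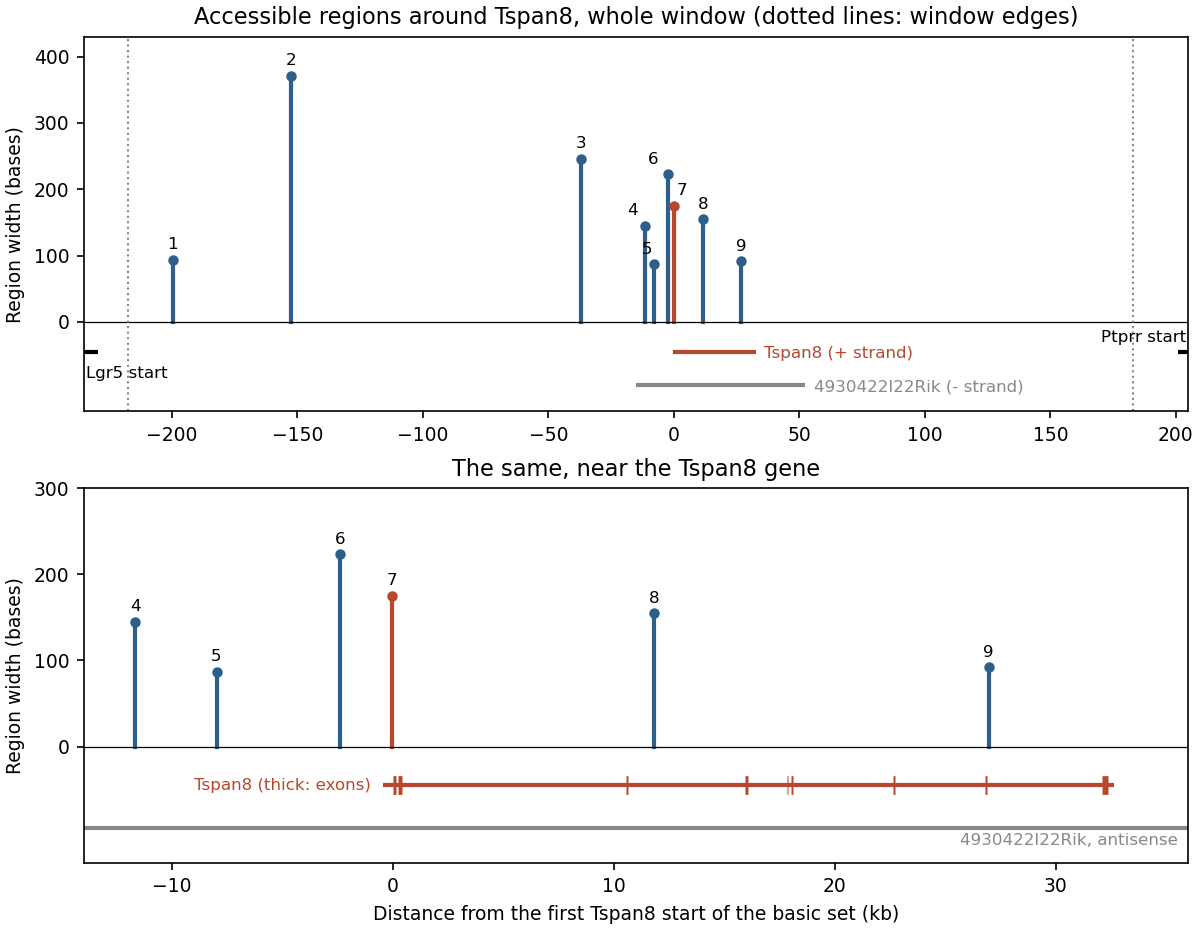
Each stem is 1 of the 9 regions, placed by the distance of its centre from the first Tspan8 start of the basic set (horizontal axis, kb) and as high as the region is wide (vertical axis, bases), with the promoter region in red and genes drawn below the zero line. The upper panel shows the whole window and the lower panel the gene, where regions 4 to 9 lie between 11666 bases upstream and 26961 bases downstream of that start.

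The promoter of Tspan8 held 1 region, region 7, from 115817150 to 115817324. It was 175 bases wide. Its centre lay 34 bases upstream of the transcription start at 115817271, and its downstream part overlapped exon 1 and the UTR. The other starts of the basic set, at 115817283 and 115817284, also lay inside region 7. The annotated start at 115816832, which belongs to a transcript outside the basic set, did not, and neither did any other region cover it. RefSeq adds a predicted transcript that starts at 115817161, inside region 7, and another that starts at 115816817, in no region, while its 3 curated transcripts start at 115817284.

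Inside the gene body there were 2 further regions, both in introns. Region 8 was 155 bases wide and lay in intron 3, which spans 5301 bases, 1131 bases after exon 3. Region 9, from 115844187 to 115844278, was 92 bases wide and lay in intron 8, only 51 bases after exon 8. Among 1919 protein-coding genes of 25 to 45 kb with a promoter region, the median was 2 regions per gene body, 72.9% had fewer than the 3 of Tspan8 and 14.2% had as many.

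On the upstream side, 3 regions lay within 11666 bases of the start and 3 lay farther away. Region 6 was the nearest, 223 bases wide with its centre 2406 bases before the start. Region 5, from 115809235 to 115809321, was the narrowest of all with 87 bases and lay 7993 bases before it. Region 4, from 115805533 to 115805677, was 145 bases wide and lay 11666 bases before it. These 3 overlapped no exon of either gene. Region 3 was 246 bases wide and lay 36844 bases before the start, with Tspan8 as the gene of the nearest annotated start. Region 2, from 115664595 to 115664965, was the widest with 371 bases and lay 152491 bases before the Tspan8 start. Region 1, from 115617600 to 115617693, was 94 bases wide and lay 199625 bases before it. The start nearest to regions 1 and 2 was that of Gm8960, a processed pseudogene from 115599026 to 115600328, which had no promoter region. Both also lay nearer to the start of the protein-coding gene Lgr5, at 115587780, than to that of Tspan8. The gap between the promoter region of Lgr5 and region 1 was 29632 bases. Position alone therefore does not assign regions 1 and 2 to Tspan8.

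The gaps between neighbouring regions from region 4 to region 9 were 3557, 5432, 2173, 11690 and 15017 bases, against a median gap of 14737 bases in the whole set. In this order, 18.6%, 25.1%, 13.8%, 43.6% and 50.5% of all gaps were smaller. The gaps on either side of region 8, inside the gene, were thus not unusually small. Upstream of region 4, the gap to region 3 was 24982 bases, larger than 64.4% of all gaps. That between regions 2 and 3 was 115339 bases, larger than 92.3% of all gaps. After region 9 the next region lay 173974 bases away at the promoter of Ptprr, and 95.4% of all gaps were smaller. Within 25 kb on either side of the gene's annotated start at 115816832, Tspan8 had 5 regions. Among 10669 coding genes whose promoter was in the set, the median was 3, with fewer than 5 at 77.4% of these genes and exactly 5 at 9.62%. The standing of Tspan8 depended on the distance. It had 3 regions within 10 kb, where 79.1% of genes had fewer, and 7 within 50 kb, where 65.8% had fewer. Within 100 kb it still had 7, which is below the median of 9, and 29.3% had fewer. All these ranks come from cells sorted by Tspan8 itself.

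Over its whole length, the window was close to an average one. In a tiling of the genome into 6805 windows of 400 kb, the median was 6 regions (quartiles 1 and 13), and 60.2% of windows held fewer than 9. On the 19 autosomes alone, 6149 windows had a median of 7 and 56.6% held fewer. The 9 regions covered 1588 bases, 0.397% of the window, compared with 0.659% of the known genome sequence in the whole set. The lower coverage went with narrower regions, since their median width was 155 bases against 212 in the whole set. Narrower than 200 bases were 6 of 9 (66.7%) in the window and 47.4% of all regions.

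**Figure D2:**
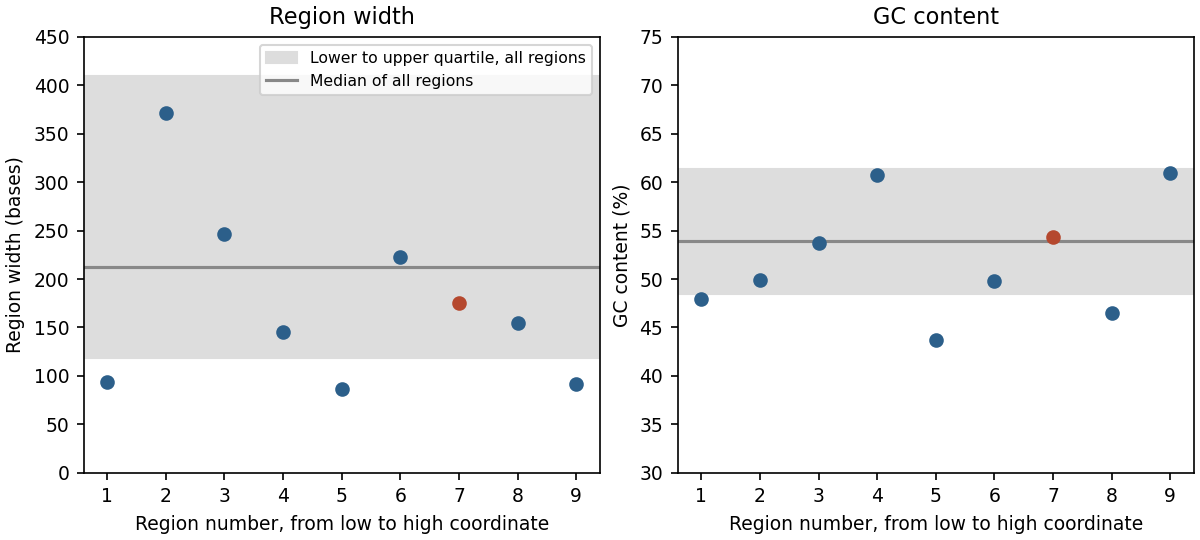
Points give the width in bases (left) and the GC content in percent (right) of regions 1 to 9, with the promoter region in red, the median of all 57124 regions as a line and the quartiles of all regions as a grey band. Widths run from 87 to 371 bases with 6 of 9 below the median line, and GC content runs from 43.7% to 60.9%.

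GC content also varied among the members. It was lowest in region 5 at 43.7% and highest in regions 9 and 4 at 60.9% and 60.7%. The median was 49.9%, compared with 53.9% over all regions. The CpG dinucleotide, whose density separates broadly used promoters from tissue-restricted ones in mammals, varied too. Region 9 had none, region 4 had 1, and regions 1, 7 and 8 had 2 each, while region 2, the widest, had 16. Relative to base content and width, the ratio of observed to expected CpG was 0.723 in region 5 and 0.698 in region 2, and it was at most 0.372 in the other 7. Among all regions, 10.8% had no CpG.

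Repeats and uniqueness of the sequence bear on the read filter, because reads that mapped to several places were removed. Soft-masked repeats took up the whole of region 4, 31.5% of region 9, 20% of region 7, 8.13% of region 3 and 5.66% of region 2, and the other 4 regions had none. Only 2.98% of all regions were masked over more than 50% of their bases, as region 4 was. Of the words of 31 bases in region 4, 70.4% occurred once in the genome, and in region 9 the share was 87.1%. The study's reads were longer than these words and came in pairs, so the shares do not tell how many reads were removed. The share of words that occurred once was 100% in each of the other 7 regions, the promoter included. The window as a whole was 28.9% soft-masked and the genome 36.4%.

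The accessible promoter sequence of Tspan8 was narrow and poor in CpG compared with those of other genes. Of 10681 promoter regions of protein-coding genes, 10.8% were narrower than its 175 bases, 9.62% had a lower GC content than its 54.3%, and 2.56% held fewer than its 2 CpG dinucleotides. The ratio of observed to expected CpG was 0.165, which 3.21% of these regions were below, and the median over all 12501 promoter regions was 0.768. When 300 bases around the RefSeq start were taken for each of 32851 RefSeq promoters, whether accessible or not, the Tspan8 promoter was near the middle. It had a GC content of 51.7% (median 52.7%) and 5 CpG dinucleotides (median 7), with 38.0% of promoters holding fewer. The rankings differ both in the bases taken and in the promoters compared, and these were not varied separately.

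Next to the other tetraspanins, Tspan8 had the fewest CpG dinucleotides in its promoter region. Of 31 tetraspanin genes, 20 had a promoter region (64.5%, 95% Wilson interval 47.0 to 78.9, counting error over genes only), compared with 48.6% of 21938 protein-coding genes. In the other 19, the widest promoter region had a median of 554 bases and 46 CpG dinucleotides. Width alone did not set Tspan8 apart, since 3 others were also below 200 bases. Tspan1, another tetraspanin of epithelia, had 170 bases with 6 CpG. Tspan7, known for its role in neurons, had 176 bases with 27 CpG, and Tspan6 had 191 bases with 17 CpG. The widest was that of Tspan14, a partner of the protease ADAM10, with 988 bases and 107 CpG. Cd151, which binds laminin-receptor integrins, had 533 bases with 5 CpG and was the only one of the 19 with a lower ratio of observed to expected CpG, 0.124. GC content was lower only at Tspan31, with 46.8%.

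**Figure D3:**
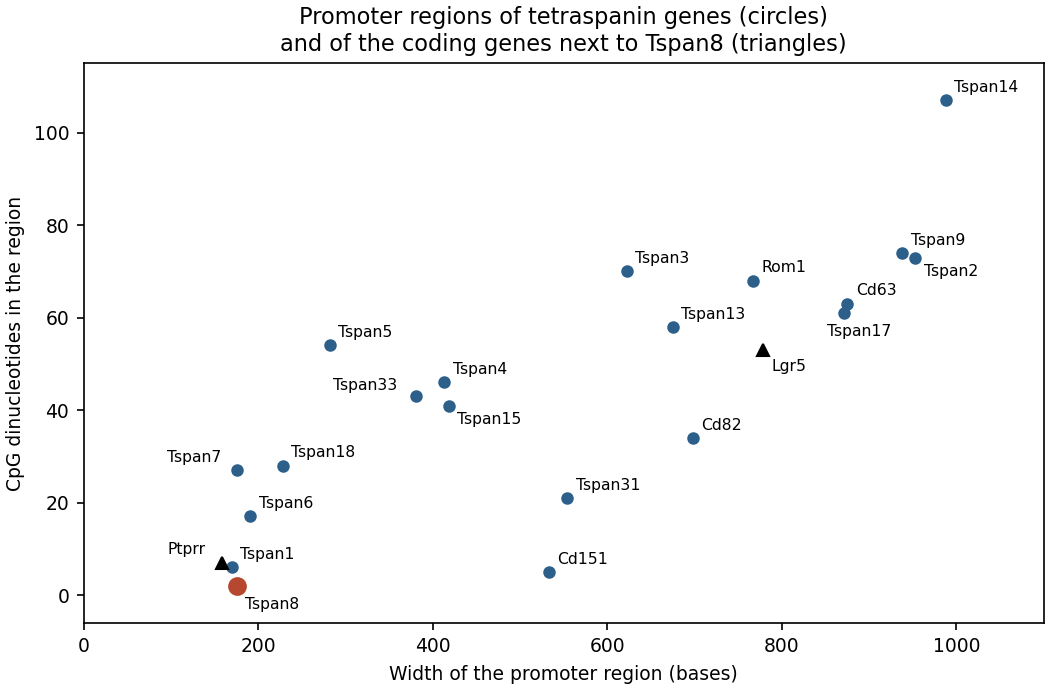
Circles place the widest promoter region of each of the 20 tetraspanin genes that have one by its width in bases (horizontal axis) and its number of CpG dinucleotides (vertical axis), with Tspan8 in red, and triangles show Lgr5 and Ptprr. Tspan8 lies at 175 bases and 2 CpG, below Tspan1 (6), Tspan6 (17) and Tspan7 (27) at similar widths.

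The 11 tetraspanins without a promoter region were Tspan10, Tspan11, Tspan12, Tspan32, Cd9, Cd37, Cd53, Cd81, Upk1a, Upk1b and Prph2. They included Cd37 and Cd53 of blood cells, with the nearest region centre 1941 and 68165 bases from a start, the uroplakins Upk1a and Upk1b of the bladder lining, at 2428 and 57806 bases, and Prph2 of photoreceptors, at 6387 bases. Tspan12, Cd9 and Cd81 missed the promoter window by little, with a centre 124, 146 and 344 bases from a start. At each of them a region did overlap a transcription start, and only the position of its centre left the gene out. Near the gene start, within 25 kb, the other 30 tetraspanins had a median of 3 regions, with more than the 5 of Tspan8 at 6 genes and the same number at 6.

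The protein-coding genes on either side differed in their promoters. Lgr5, a Wnt pathway receptor of epithelial stem cells, lies on the opposite strand with its start 229051 bases before Tspan8. Its promoter region, from 115587190 to 115587967, was 778 bases wide with 53 CpG dinucleotides. Ptprr, a receptor-type tyrosine phosphatase, begins 168319 bases after Tspan8, and its promoter region, from 116018253 to 116018410, was 158 bases wide with 7 CpG dinucleotides. Both lay outside the window.

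Letters of 6 transcription factor families were searched on both strands of the 9 regions, with overlaps between motifs allowed. They were AGGAAG for ETS factors and GGGNGTGG for Krüppel-like factors, the families on which the study centres, TGANTCA for AP-1, ATGCAAAT for POU factors, GTTAAT for the half-site of HNF1 and TATAAA for the TATA box. A match is a description of the letters and not evidence of binding. At least 1 of the 6 was found in 4 of 9 regions.

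The AP-1 letters were the most frequent, in 3 of 9 regions with 5 matches. Over all regions, 21.3% held them, and at the shares of their own width classes 1.82 of 9 regions would. These shares count any base at N, whereas all 5 matches here had C or G there. In region 3, TGAGTCA occurred 2 times, with 12 bases from start to start and on both sides of the region's centre. In region 8, TGACTCA occurred 2 times, 19 bases from start to start, beginning 16 bases before and 3 bases after the centre. Both matches are followed by ctcaca, so they belong to a longer repeated stretch and need not be separate sites. In region 6 there was 1 match, which began 4 bases after the region's first base, at its edge. Having 2 or more matches was less usual. It applied to 5.60% of all regions from 200 to under 400 bases, the class of region 3, and to 2.38% of those from 100 to under 200 bases, the class of region 8. Regions 3 and 8 flank the start, 36844 bases before and 11821 bases after it, and the promoter region between them had none.

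The promoter region held the Krüppel-like letters, read on the reverse strand from 115817245 to 115817252 and beginning 26 bases before the start. The printed forward strand has CCACTCCC there, so the base at N is A on the reverse strand. The search and the shares that follow allow any base at N. Whether a Krüppel-like factor accepts A at this position was not tested. Among all regions from 100 to under 200 bases, 7.39% held these letters, and among all RefSeq promoters of 300 bases 17.6% did. The octamer ATGCAAAT occurred in the same promoter from 115817089 to 115817096, directly after a run of 10 G, and 1.74% of RefSeq promoters held it. It lay outside the accessible region, with 53 bases between them. Region 7 also held 6 copies of CCAG in a row, from 115817174 to 115817197. No TATAAA was found in the 300 bases of the promoter, as in most promoters, since 13.6% held it.

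The ETS letters AGGAAG were found in 0 of 9 regions and 0 times in the 300 bases of the Tspan8 promoter. Over all regions 30.8% held them, from 11.5% of those below 100 bases to 64.8% of those of 800 bases or more, and at the shares of their width classes 1.94 of 9 regions would. The octamer, the HNF1 half-site and the TATA box were found in 0 of 9 regions as well, with 0.145, 0.333 and 0.46 regions at the shares of the width classes. Each motif was searched in the letters given and in no other spelling. Region 3, for example, holds CTTCCG, which reads CGGAAG on the reverse strand and differs from the ETS letters only in its first base. Because 9 regions are few and most were narrow, these zeros say only that the exact letters are not in these windows. They do not show that sites of these families are absent.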

How the data were processed

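ATAC-seq was performed on mTECs sorted into 4 groups of 2 biological replicates. The authors aligned the reads to mm10 with Bowtie2, removed mitochondrial, multimapping and low-quality alignments and duplicates, called broad peaks with MACS2, merged them with bedtools and counted reads per region with featureCounts 2.0.3, per the file headers. The sources used here do not say if peaks came from single or pooled samples. The deposited values used were the start, end and width of each merged region in bases, taken as 1-based positions. The 8 columns of read counts were left out, because their names match no sample, and the planned group comparisons were not run.

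Regions were compared with GRCm38 (0 of 21 chromosomes had a region past their end) and annotated with GENCODE M21, the basic set for promoters (region centre at most 1000 bases before or 100 bases after a start) and the comprehensive set for the window. Genes named were Tspan8, the genes in or next to the window and 31 listed tetraspanins. The members and lists were chosen with earlier results of these data known. The grouping of regions 4 to 9, the distance of 25 kb around a start, the gene lengths of 25 to 45 kb, the paired AP-1 matches, the G run and the CCAG repeat were chosen after the positions and sequences had been seen. Width classes had limits at 100, 200, 400 and 800 bases. Promoter assignment, motif search and word counting were tested on simulated data. Plots were drawn with matplotlib 3.10.9, and all else was computed with pandas 2.3.3, scipy 1.17.1 and numpy 2.4.6 under Python 3.11.15.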

Additional observations from a re-analysis of the deposited data

How the results depend on the processing

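The number of regions depended on width and on the window. It was 9 with the window as given, 8 with 50 kb less on each side and 9 when only the centre had to lie inside, but 16 with 100 kb more on each side and 3 without the regions below 200 bases. That width limit removed the Tspan8 promoter region, which leaves 0, since it is 175 bases wide, and it kept 16 of 20 tetraspanins with a promoter region. The other promoter definitions gave 20 to 24 tetraspanins and all kept Tspan8. In the 200 bases around each region's centre, a motif was found at 3 of 9 regions and the AP-1 letters at 2, without region 6. For regions narrower than 200 bases, this stretch takes in sequence outside the region. The share of all regions with the AP-1 letters was 24.3% outside promoters and 18.5% in the 200 bases around the centre. Further settings were added after the data had been seen. Leaving out X and Y lowered the share of windows with fewer regions from 60.2% to 56.6%. The share of genes with fewer regions near the start was 77.4% at 25 kb, 79.1% at 10 kb and 65.8% at 50 kb, but 29.3% at 100 kb. No paired analysis was possible because no column of counts could be matched to a sample or replicate, so nothing on counts was run. Narrow regions such as 1, 5 and 9 rest on the peak caller, and their signal was not analysed here.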
